A study of Homo sapiens with 24 samples.

Results

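The genes described here are 10 outputs and feedback inhibitors of the ERK pathway: the phosphatases DUSP4, DUSP5 and DUSP6, the Sprouty and SPRED proteins SPRY2, SPRY4, SPRED1 and SPRED2, the ETS-family transcription factors ETV4 and ETV5, and PHLDA1. They were chosen by symbol, as genes whose transcripts are commonly read as a measure of ERK activity, and all 10 were found among the 58174 genes listed for each cell line. Total RNA depleted of ribosomal RNA was sequenced after transfection of a control siRNA (siC) or of a pool of siRNAs against IGF2BP1 (siI1), an RNA-binding protein made in the embryo and in many tumours, to find which transcripts change when IGF2BP1 is lowered. Each arm had 3 libraries in each of 4 human cancer lines, which gives 24 libraries in 8 groups. The lines come from a lung adenocarcinoma (A549), an ovarian clear cell carcinoma (ES2), an amelanotic melanoma (MV3) and a ductal adenocarcinoma of the pancreas (PANC1). Cells were collected 72 h after transfection in A549, ES2 and MV3 and 96 h after transfection in PANC1, so that the PANC1 line and the later harvest cannot be told apart. Every group is thus 1 established line in culture, and p-values measure the spread between its 3 libraries, which the study's methods call biological replicates and for which the labels name no separate cultures.

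ERK is the last kinase of the cascade that runs from growth factor receptors through RAS, RAF and MEK. Active ERK enters the nucleus, phosphorylates transcription factors of the ETS family and relieves repression by CIC, and a set of genes is then transcribed within minutes to hours. Several of the proteins made feed back on the cascade: DUSP4, DUSP5 and DUSP6 remove phosphate from ERK, Sprouty proteins act near the receptors and RAS, and SPRED proteins bring the RAS inhibitor neurofibromin to the membrane. Transcripts of this kind are therefore often measured in tumour cells to see how strongly the pathway is driven.

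Values are FPKM, that is, fragments counted per unit of gene length and of library size, which can be compared between genes. Reads assigned to genes numbered 3105215 to 4553326 per library in A549, 6421764 to 8419467 in ES2, 15572492 to 20082702 in MV3 and 6532175 to 8472851 in PANC1, so that a given FPKM rests on the fewest reads in A549. IGF2BP1 itself was lower in every siI1 library than in any siC library of its line, and its log2 fold change was least in A549 (-1.32), close in MV3 (-1.52) and ES2 (-1.55), and largest in PANC1 (-1.83; limma, adjusted p = 0.000319, 5.93e-05, 0.000115 and 0.000227). None of 6 melanocyte markers reached 0.5 FPKM at the median in MV3, where SOX10, TYR and DCT were at 0, so the labelled origin of this line could not be seen in its defining transcripts. Of 5 carcinoma markers, 5 reached that level in A549 and PANC1 and 3 in ES2 and in MV3. Their summed level in A549 was 1125 to 1231 FPKM in siC and 516 to 546 FPKM in siI1, in PANC1 1338 to 1760 against 2060 to 2213 FPKM, in ES2 151 to 167 against 194 to 222 FPKM, and in MV3 22.7 to 24.3 against 20.6 to 23.7 FPKM. The summed level of 6 leukocyte and fibroblast markers was 2.74 to 2.95 FPKM in siC and 5.14 to 5.997 FPKM in siI1 in ES2, 1.11 to 1.30 against 2.51 to 2.88 FPKM in MV3, 2.31 to 3.70 against 0.851 to 1.28 FPKM in A549, and 0.0215 to 0.140 against 0 to 0.0150 FPKM in PANC1. Most of the sum was PDGFRA in ES2 and MV3, with means of 2.81 in siC and 5.45 in siI1 and of 1.13 and 2.58 FPKM, and LUM in A549, at 3.07 and 0.989 FPKM, while PTPRC and CD3E, which mark leukocytes, were at a median of 0 in every line. The small cytoplasmic RNA gene RN7SL2 held the largest share of reads in every line, and in PANC1 this share was 8.74 to 12.8% in siC and 17.7 to 20.9% in siI1. The part of these shifts in the results was not tested.

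Upstream sequences are shown for the genes where a searched word was found in them, with DUSP6 beside them as the gene followed most closely in the comparison between lines. Upstream sequence of 6 of the 10 genes could be matched in RefSeq (GRCh38.p14), namely SPRED1, SPRED2, SPRY2, SPRY4, DUSP6 and PHLDA1. Both strands of the 250 bases before each start site were searched for 4 binding words of factors that ERK acts on. Each was searched as 1 pattern: CCGGAA for ETS factors, TGANTCA for AP-1, TGAATGNA for CIC and the CArG box for SRF. Other forms of these sites were not searched, so a promoter without a word, such as that of DUSP6, can still hold a site. These genes have 9 promoters in the table, with 3 for SPRY2 and 2 for SPRED2. The ETS word was found in 2 of the 9, that of PHLDA1 and 1 of the 3 of SPRY2, and in 14.5% of 35116 promoters. The other words were found in none of the 9, against 6.57% of promoters for the AP-1 word, 3.25% for the CIC word and 1.16% for the CArG box. Capitals mark the ETS word as searched, which reads TTCCGG where it lies on the opposite strand. Each sequence runs 5′ to 3′ along the gene and ends at the base before the start site. In the SPRY2 promoter with the word, the one shown, the word begins 142 bases before the start site, in PHLDA1 89 bases before it. The regions are chr13:80341127-80341376 for SPRY2, chr12:76031777-76032026 for PHLDA1 and chr12:89352502-89352751 for DUSP6, all on the minus strand.
SPRY2: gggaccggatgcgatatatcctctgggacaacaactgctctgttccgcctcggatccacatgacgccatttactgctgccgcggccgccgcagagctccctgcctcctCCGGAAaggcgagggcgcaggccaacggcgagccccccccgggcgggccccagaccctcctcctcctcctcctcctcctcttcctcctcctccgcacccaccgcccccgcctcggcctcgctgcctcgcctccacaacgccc
PHLDA1: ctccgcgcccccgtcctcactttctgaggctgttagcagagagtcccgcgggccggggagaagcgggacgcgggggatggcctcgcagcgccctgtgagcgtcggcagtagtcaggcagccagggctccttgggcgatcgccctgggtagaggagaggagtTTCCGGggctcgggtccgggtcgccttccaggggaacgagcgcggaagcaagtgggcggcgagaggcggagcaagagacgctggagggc
DUSP6: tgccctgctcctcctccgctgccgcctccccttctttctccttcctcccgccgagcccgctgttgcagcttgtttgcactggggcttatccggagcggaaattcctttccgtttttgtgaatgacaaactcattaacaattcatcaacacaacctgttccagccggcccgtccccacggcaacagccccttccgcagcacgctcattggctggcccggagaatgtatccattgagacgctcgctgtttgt

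IGF2BP1 acts on RNA, so the 3'UTRs of the 10 genes were also read, taking the longest one annotated for each gene in GENCODE release 44 (hg38). Their median length was 2487.5 nt, from 675 nt in ETV4 to 5585 nt in SPRED1, against 1534.5 nt over 9578 other protein-coding genes tested in all 4 lines. The AU-rich nonamer TTATTTATT, a word of short-lived mRNAs that other RNA-binding proteins read, was found in 2 of the 10, DUSP4 and PHLDA1, and in 9.96% of the other genes. Longer 3'UTRs have more room for such a word. Within the first 1000 bases of 3'UTRs at least that long, 1 of 8 members held it, PHLDA1, against 4.89% of the other genes. The PHLDA1 site is shown with its flanks and the nonamer in capitals, and lies at chr12:76029787-76029815 on the minus strand.
PHLDA1 site: tgatttatgaTTATTTATTagtttttttt

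After IGF2BP1 knockdown, the 10 genes moved in different directions in the 4 lines. In ES2, 8 of 10 fell and SPRED1 rose. In MV3, 7 of 10 fell, 6 of them with a smaller value than in ES2, and SPRED1 rose again. In A549, DUSP6, SPRED1 and PHLDA1 rose and DUSP4 fell, and in PANC1 DUSP5 rose while none of the other 8 genes tested passed. The median log2 fold change of the members was -0.63 in ES2, -0.19 in MV3, 0.27 in A549 and 0.02 in PANC1, against medians of all tested genes of -0.02, 0.01, -0.01 and -0.04. Each line was tested by limma on log2(FPKM + 0.5), over genes that averaged 0.5 FPKM or more and with Benjamini-Hochberg adjustment at 0.05 over all of them (A549 18411, ES2 16920, MV3 16380 and PANC1 15846 genes). Of all tested genes, A549 had 7.83% called lower and 5.93% higher, ES2 13.0% and 10.5%, MV3 19.5% and 16.3%, and PANC1 13.4% and 11.3%. The 8 and 7 members that fell in ES2 and MV3 are to be read against 13.0% and 19.5%, and the 3 that rose in A549 against 5.93%. DUSP4 had at most 1 read in any PANC1 library and was not tested there, so that 9 members were tested in PANC1.

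**Figure D1:**
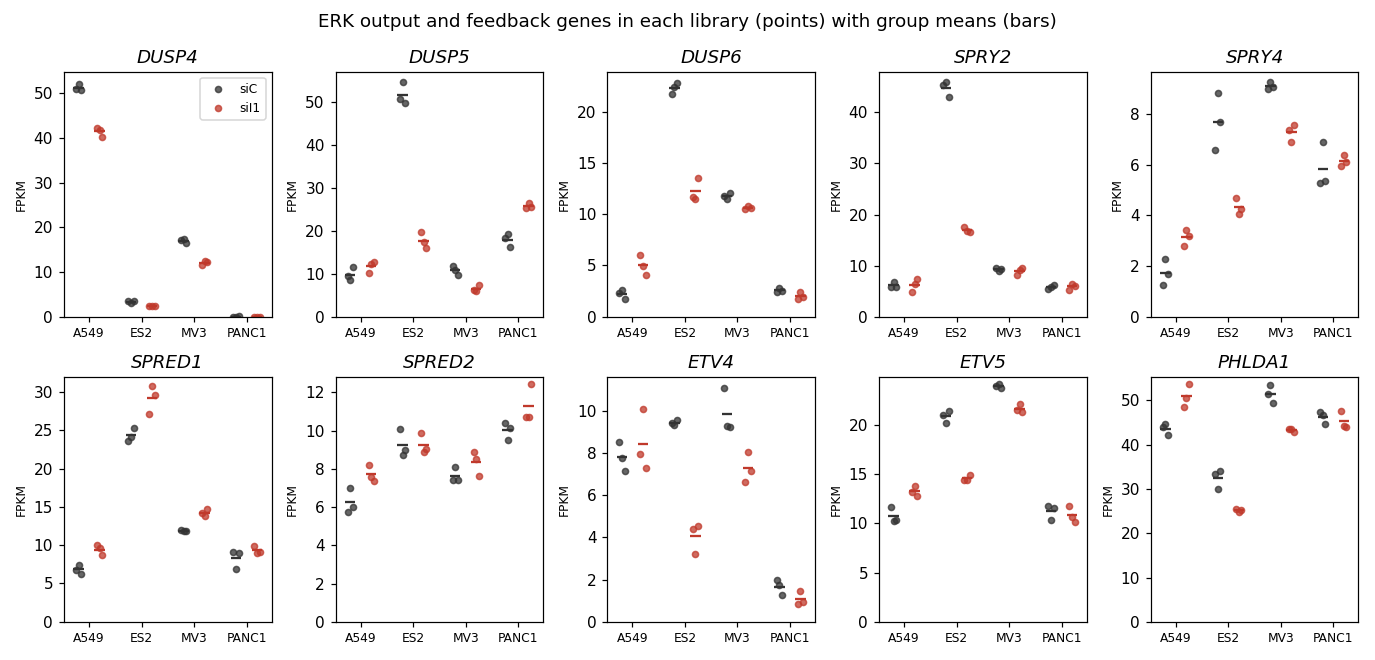
FPKM (vertical axes, from 0) of the 10 genes in each of the 24 libraries, by cell line, with siC in black and siI1 in red and a bar at each group mean. In ES2 the siI1 points of DUSP5, DUSP6, SPRY2 and ETV4 lie far below the siC points, whereas the A549 siI1 points of DUSP6 lie above them and DUSP4 is near 0 in all PANC1 libraries.

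The calls for higher members in A549 depended on single libraries. Leaving out siC library 1, siI1 library 1 or siI1 library 2 left 0 of the 3, and leaving out siC library 3 left 1. The 3 genes were DUSP6, SPRED1 and PHLDA1, and PHLDA1 passed in none of the 6 fits without 1 library. Without siC library 2 the count stayed at 3, with SPRY4 in place of PHLDA1. With limma voom on the reads recovered from the values, 5 members rose in A549, SPRY4 and ETV5 being added. In ES2, leaving out 1 library left 7 or 8 members lower, the one lost being DUSP4, and SPRED1 passed in 2 of the 6 such fits. In MV3, 5 to 7 members stayed lower, and the 2 lost without siI1 library 1 or siI1 library 3 were DUSP6 and ETV4.

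DUSP5, a nuclear phosphatase that holds and inactivates ERK, showed the widest range of responses. In ES2 it was 50.8, 54.7 and 49.9 FPKM in the 3 siC libraries and 19.6, 17.5 and 16.0 FPKM in the 3 siI1 libraries. In MV3 it was 11.7, 10.9 and 9.61 FPKM in siC and 6.23, 5.96 and 7.28 FPKM in siI1. PANC1 went the other way, with 18.2, 19.2 and 16.2 FPKM in siC and 25.2, 26.5 and 25.5 FPKM in siI1. The groups did not overlap in these 3 lines, and in A549 they did, at 8.46 to 11.5 FPKM in siC and 10.2 to 12.8 FPKM in siI1. The log2 fold changes were -1.53 ± 0.08 (SE) in ES2, -0.69 ± 0.10 in MV3 and 0.52 ± 0.07 in PANC1 (n = 3 libraries per arm throughout; limma, adjusted p = 0.000190, 0.00263 and 0.00474). In A549 the value was 0.26 ± 0.14 and did not pass (adjusted p = 0.288). The ES2 change was a 2.88-fold fall on the log2(FPKM + 0.5) scale, the largest among the members in any line.

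DUSP6, a cytoplasmic phosphatase specific for ERK, rose in A549 and fell in ES2 and MV3. In A549 the siC libraries held 2.28, 2.55 and 1.72 FPKM and the siI1 libraries 5.97, 4.98 and 4.08 FPKM, which are 35 to 105 reads per library. ES2 had 21.7, 22.4 and 22.8 FPKM in siC and 11.6, 11.5 and 13.5 FPKM in siI1. In both lines every siI1 library lay on one side of every siC library, above in A549 and below in ES2. The log2 fold change was 1.04 ± 0.19 in A549 (limma, adjusted p = 0.0171) and -0.85 ± 0.07 in ES2 (limma, adjusted p = 0.000818). In A549 the change stayed between 0.91 and 1.16 whichever library was left out, with adjusted p from 0.0284 to 0.0611, past the threshold in 3 of 6 fits and lost without siC library 1, siI1 library 1 or siI1 library 2. Over all settings tried for this value the adjusted p ran from 2.15e-07 to 0.0611. The MV3 fall was small, from 11.5 to 12.1 FPKM in siC to 10.5 to 10.8 FPKM in siI1, a log2 fold change of -0.15 ± 0.04 (limma, adjusted p = 0.0205). It was past the threshold in 3 of the 6 fits without 1 library, being lost without siC library 1, siI1 library 1 or siI1 library 3. In PANC1 DUSP6 was 2.43 to 2.79 FPKM in siC and 1.74 to 2.37 FPKM in siI1, and the log2 fold change of -0.30 ± 0.13 did not pass (adjusted p = 0.147).

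DUSP4, a nuclear phosphatase of ERK, p38 and JNK, fell in each of the 3 lines in which it was tested. In A549 it was 50.9, 52.2 and 50.7 FPKM in siC and 42.2, 41.9 and 40.3 FPKM in siI1, with 986 to 1614 reads per library. In MV3 it was 17.1, 17.4 and 16.5 FPKM in siC and 11.6, 12.3 and 12.1 FPKM in siI1. The siI1 libraries were lower than the siC libraries in both lines without overlap. In ES2 the level was low, at 3.41, 2.98 and 3.46 FPKM in siC and 2.28, 2.35 and 2.46 FPKM in siI1. The log2 fold changes were -0.30 ± 0.04 in A549, -0.48 ± 0.04 in MV3 and -0.40 ± 0.09 in ES2 (limma, adjusted p = 0.00810, 0.000370 and 0.0270). The ES2 call was kept in 1 of the 6 fits without 1 library, the one without siC library 2, with adjusted p from 0.0335 to 0.0832. A difference in the DUSP4 effect between these 3 lines did not pass (limma F test over 13954 genes, adjusted p = 0.164). DUSP4 was thus the only one of the 3 phosphatases here that fell in A549.

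SPRY2, a Sprouty protein that restrains receptor signalling, passed in ES2 alone. The ES2 siC libraries held 45.4, 45.9 and 43.1 FPKM and the siI1 libraries 17.5, 16.8 and 16.6 FPKM. This was a log2 fold change of -1.37 ± 0.05 (limma, adjusted p = 6.31e-05), a 2.59-fold fall, and the siI1 values spread over less than 1 FPKM. In the other lines the arms overlapped: 5.73 to 6.78 against 4.91 to 7.43 FPKM in A549, 8.86 to 9.58 against 8.11 to 9.49 FPKM in MV3 and 5.44 to 6.11 against 5.30 to 6.46 FPKM in PANC1. Their log2 fold changes were 0.01 with a 95% interval of -0.38 to 0.39 in A549, -0.05 with an interval of -0.21 to 0.11 in MV3 and 0.02 with an interval of -0.20 to 0.24 in PANC1. A fall of the ES2 size lay outside each of these intervals.

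SPRY4, the other Sprouty gene, fell in ES2 and MV3. In ES2 it was 6.59, 8.84 and 7.69 FPKM in siC and 4.68, 4.07 and 4.25 FPKM in siI1, and in MV3 8.99, 9.27 and 9.09 FPKM in siC and 7.38, 6.90 and 7.57 FPKM in siI1. The arms were separate in both. The log2 fold changes were -0.76 ± 0.12 in ES2 and -0.31 ± 0.05 in MV3 (limma, adjusted p = 0.00583 and 0.00331). In A549 its libraries were separate in the other direction, at 1.24, 2.29 and 1.69 FPKM in siC and 2.78, 3.41 and 3.19 FPKM in siI1. That log2 fold change of 0.72 ± 0.21 did not pass in limma on FPKM (adjusted p = 0.0734). It passed in limma on FPKM without siC library 2 (adjusted p = 0.0483) and with voom on the recovered reads (adjusted p = 0.000214). Over all settings the adjusted p ranged from 0.000214 to 0.190. In PANC1 the value was 0.08 ± 0.11 (adjusted p = 0.657).

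SPRED1, which recruits neurofibromin to the membrane and so lowers active RAS, was the member that rose in 3 lines. In A549 it was 6.77, 7.42 and 6.30 FPKM in siC and 9.97, 9.61 and 8.71 FPKM in siI1. In ES2 it was 23.6, 24.2 and 25.2 FPKM in siC and 27.2, 30.7 and 29.5 FPKM in siI1, and in MV3 12.0, 11.8 and 11.8 FPKM in siC and 14.2, 13.7 and 14.7 FPKM in siI1. Each of the 3 lines had all siI1 libraries above all siC libraries. The log2 fold changes were 0.44 ± 0.09, 0.25 ± 0.06 and 0.25 ± 0.04 (limma, adjusted p = 0.0285, 0.0254 and 0.00293). The A549 and ES2 calls were each kept in 2 of the 6 fits without 1 library, with adjusted p up to 0.0926 and 0.0882, and the MV3 call in 6 of 6. The A549 call was lost without siC library 1 or 3 or siI1 library 1 or 2, and the ES2 call without siC library 1 or 2 or siI1 library 2 or 3. In PANC1 SPRED1 was 6.94 to 9.08 FPKM in siC and 8.998 to 9.93 FPKM in siI1, a log2 fold change of 0.17 with a 95% interval of -0.10 to 0.44. In ES2 and MV3 SPRED1 thus rose while most of the other members fell. SPRED2, its close relative, passed in no line, with log2 fold changes of 0.28 in A549, 0.16 in PANC1, 0.12 in MV3 and 0.00 in ES2 (limma, adjusted p = 0.125, 0.184, 0.223 and 0.998).

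ETV4 and ETV5 encode ETS transcription factors of the PEA3 group, which are transcribed in response to ERK and bind ETS sites themselves. ETV4 in ES2 was 9.41, 9.34 and 9.53 FPKM in siC and 4.38, 3.23 and 4.53 FPKM in siI1. Its MV3 values were 11.1, 9.25 and 9.21 FPKM in siC and 6.61, 8.06 and 7.12 FPKM in siI1. Both sets were separate and lower after knockdown, with log2 fold changes of -1.14 ± 0.12 in ES2 and -0.41 ± 0.10 in MV3 (limma, adjusted p = 0.00176 and 0.0181). The MV3 call was lost without siI1 library 1 or siI1 library 3, at adjusted p = 0.0537 and 0.0578, within a range of 5.07e-05 to 0.0586 over all settings. In A549 and PANC1 ETV4 did not pass, with 0.10 ± 0.13 and -0.43 ± 0.21 (adjusted p = 0.705 and 0.190), and in PANC1 it rested on 21 to 53 reads per library.

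ETV5 fell in the same lines as ETV4. In ES2 it was 21.0, 20.2 and 21.5 FPKM in siC and 14.4, 14.4 and 14.9 FPKM in siI1, and in MV3 23.98, 24.1 and 23.7 FPKM in siC and 21.5, 22.1 and 21.3 FPKM in siI1. The arms did not overlap in either line. The falls were -0.51 ± 0.05 and -0.15 ± 0.03 on the log2 scale (limma, adjusted p = 0.00100 and 0.00907). In A549 the siI1 libraries, at 12.8 to 13.8 FPKM, were above the siC libraries, at 10.2 to 11.7 FPKM, and the log2 fold change of 0.30 ± 0.08 missed the threshold (adjusted p = 0.0542). It passed with voom (adjusted p = 0.0125), with median-ratio scaling (adjusted p = 0.0417) and with a filter of at least 2 FPKM (adjusted p = 0.0375), over settings from 0.0125 to 0.155. In PANC1 the value was -0.05 ± 0.08 (adjusted p = 0.717).

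PHLDA1, a pleckstrin homology-like protein induced by growth factors, was among the most abundant members in every line. In MV3 it was 51.5, 53.5 and 49.4 FPKM in siC and 43.5, 43.7 and 42.9 FPKM in siI1, with 6256 to 7140 reads per library. In ES2 it was 33.4, 30.1 and 34.1 FPKM in siC and 25.4, 24.8 and 25.2 FPKM in siI1, and in A549 44.1, 44.7 and 42.1 FPKM in siC and 48.6, 50.6 and 53.8 FPKM in siI1. No arms overlapped in these lines, with siI1 lower in MV3 and ES2 and higher in A549. The log2 fold changes were -0.24 ± 0.04, -0.36 ± 0.06 and 0.22 ± 0.06 (limma, adjusted p = 0.00284, 0.00665 and 0.0475). The A549 call was lost without any 1 library, with adjusted p from 0.0604 to 0.128. In PANC1 the level was 44.7 to 47.3 FPKM in siC and 44.1 to 47.6 FPKM in siI1, and the log2 fold change of -0.03 had a 95% interval of -0.16 to 0.10.

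**Figure D2:**
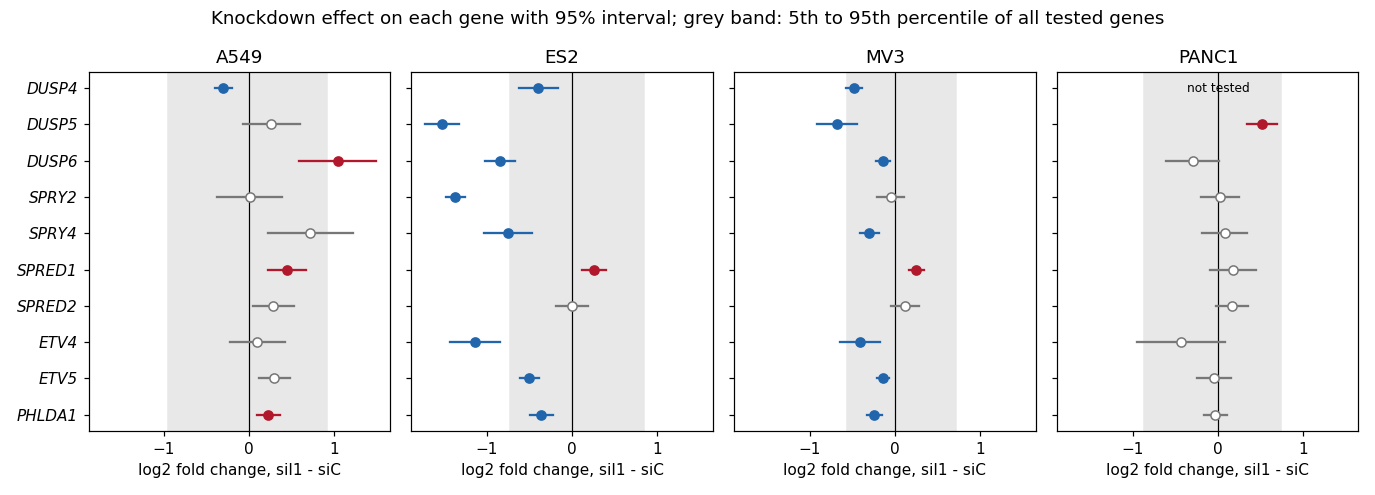
Log2 fold change, siI1 minus siC, of each gene (rows) in each line (panels) with its 95% interval. Filled points passed at an adjusted p of 0.05, blue lower and red higher, open grey points did not, and the grey band holds the 5th to 95th percentile of all genes tested in the line. In ES2, DUSP5 at -1.53, SPRY2 at -1.37, ETV4 at -1.14, DUSP6 at -0.85 and SPRY4 at -0.76 lie below the band, which begins at -0.73. In MV3 DUSP5 at -0.69 lies below it and in A549 DUSP6 at 1.04 above it.

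The scaling of the libraries mattered in PANC1. When values were rescaled so that each library had the same sum of FPKM, the median log2 fold change of all genes in PANC1 moved from -0.04 to -0.68, and 98.9% of all called genes were lower instead of 54.3%. Under that scaling 7 members fell in PANC1 and DUSP5 no longer passed. Relative to the median of all genes, DUSP5 was at 0.55 as deposited and at 0.46 with the same sum, SPRY2 at 0.06 and 0.01, PHLDA1 at 0.00 and -0.10, DUSP6 at -0.26 and -0.24 and ETV4 at -0.40 and -0.31. With median-ratio scaling the PANC1 median was -0.01 and the counts were those of the values as deposited, 1 higher and 0 lower. The count of 0 lower members in PANC1 (limma) was also 0 at an unadjusted p under 0.05 and 0 with voom. In the other lines same-sum scaling moved the median of all genes by less than 0.1, and the share of lower genes among those called went from 56.9 to 65.6% in A549, from 55.4 to 44.4% in ES2 and from 54.5 to 58.5% in MV3. In ES2 it left 6 members lower, DUSP4 and PHLDA1 being lost, and in MV3 it left 5, DUSP6 and ETV5 being lost. DUSP6 in MV3 was lost with median-ratio scaling as well.

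Whether the knockdown effect differed between lines was tested directly, in a fit over all 24 libraries with a mean for each of the 8 groups. The difference passed for 7 of the 9 genes tested in all 4 lines: DUSP5, DUSP6, SPRY2, SPRY4, ETV4, ETV5 and PHLDA1. Such differences were common, since the same F test passed for 45.0% of 12816 genes. Adjusted p-values (limma) were 2.80e-08 for DUSP5, 5.89e-07 for DUSP6, 6.82e-07 for SPRY2, 4.78e-06 for ETV5, 1.13e-05 for PHLDA1, 3.94e-05 for SPRY4 and 0.00130 for ETV4. SPRED1 and SPRED2 did not pass (adjusted p = 0.230 and 0.203), so that a difference between the rise of SPRED1 in 3 lines and its value in PANC1 was not shown. Without ES2, SPRY2 and ETV4 no longer passed (adjusted p = 0.926 and 0.117) and 5 of 9 remained, whereas 7 remained when any other line was left out.

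Between A549 and ES2 the same 7 genes passed, with 21.8% of all genes, and the difference, A549 minus ES2, was 1.88 for DUSP6 with a 95% interval of 1.53 to 2.23, 1.79 for DUSP5, 1.47 for SPRY4 and 1.38 for SPRY2 (log2). Between ES2 and PANC1, 7 of 9 passed, with 30.0% of all genes, and DUSP5 differed most, at -2.04 with an interval of -2.37 to -1.72. ES2 and MV3, in which most members fell, differed in 5 of 9, with 12.9% of all genes: SPRY2 fell further in ES2 by a difference of -1.32, DUSP5 by -0.84, ETV4 by -0.73, DUSP6 by -0.70 and ETV5 by -0.36. A549 and MV3 differed in 5 of 9, with 19.6% of all genes, and A549 and PANC1 in 4 of 9, with 25.3%. MV3 and PANC1 differed in 2 of 9, DUSP5 at -1.20 and PHLDA1 at -0.21, with 22.1% of all genes. These counts come from limma contrasts adjusted over genes and pairs together, with a spread for each gene that is shared by the lines. For DUSP6 the SE was 0.17 for every pair, while in the fits of single lines it was 0.19 in A549 and 0.04 in MV3. Its intervals can therefore be too narrow where A549 is in the pair and too wide where MV3 is paired with ES2 or PANC1. For SPRY2 the interval between A549 and PANC1 was -0.32 to 0.29, and for DUSP6 between MV3 and PANC1 it was -0.20 to 0.50.

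Levels in the siC libraries spanned from 1.58-fold for PHLDA1 to 10.2-fold for DUSP6 between the lines, DUSP4 aside. The tables of the lines were normalised separately, so siC levels are given side by side without a test, and neighbours are called separate only where their 3 libraries do not overlap. DUSP4 ranged from 51.3 ± 0.80 FPKM (SD, n = 3) in A549 through 17.0 ± 0.46 in MV3 and 3.28 ± 0.26 in ES2 to 0.0055 in PANC1, which was 1 read in 1 of 3 siC libraries. DUSP5 was highest in ES2 at 51.8 ± 2.5 FPKM, followed by PANC1 at 17.9 ± 1.5, with MV3 at 10.8 ± 1.1 and A549 at 9.78 ± 1.6 overlapping. SPRY2 was 44.8 ± 1.5 FPKM in ES2 and 9.27 ± 0.37 in MV3, with A549 at 6.12 ± 0.57 and PANC1 at 5.80 ± 0.34 overlapping. DUSP6 was 22.3 ± 0.57 FPKM in ES2 and 11.8 ± 0.30 in MV3, and lower in PANC1 at 2.56 ± 0.20 and A549 at 2.18 ± 0.42, which overlapped. DUSP5, DUSP6, SPRY2 and SPRED1 thus had their highest siC level in ES2.

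ETV4 was 9.84 ± 1.1 FPKM in MV3 and 9.43 ± 0.10 in ES2, which overlapped, then 7.79 ± 0.68 in A549 and 1.65 ± 0.36 in PANC1. ETV5 was 23.95 ± 0.21 FPKM in MV3, 20.9 ± 0.62 in ES2, and 11.2 ± 0.77 in PANC1 and 10.7 ± 0.84 in A549, the last 2 overlapping. SPRY4 was 9.12 ± 0.15 FPKM in MV3, 7.71 ± 1.1 in ES2, 5.85 ± 0.91 in PANC1 and 1.74 ± 0.53 in A549, with ES2 and PANC1 overlapping. SPRED1 was 24.3 ± 0.83 FPKM in ES2, 11.9 ± 0.12 in MV3, 8.32 ± 1.2 in PANC1 and 6.83 ± 0.57 in A549, the last 2 overlapping. The narrowest ranges were those of SPRED2, 1.60-fold from 6.27 FPKM in A549 to 10.0 FPKM in PANC1, and PHLDA1, 1.58-fold from 32.5 FPKM in ES2 to 51.5 FPKM in MV3. PANC1 overlapped ES2 for SPRED2 and A549 for PHLDA1. Summed over the 10 genes, the siC level was 226.4 FPKM in ES2, 162.7 in MV3, 146.4 in A549 and 109.6 in PANC1. The leading gene of that sum was DUSP5 in ES2, PHLDA1 in MV3 and PANC1, and DUSP4 in A549. In bulk RNA of this kind, fewer cells that express a gene and less RNA per cell cannot be told apart.

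Relatives of the 10 genes and other transcripts that follow ERK were read from further lists. Of 14 other ERK-responsive genes, 8 of 14 tested fell and 0 rose in ES2 (limma; also 0 at an unadjusted p under 0.05 and 0 with voom), and 10 of 13 fell and 2 rose in MV3. In A549 1 of 13 fell and 4 rose, and in PANC1 3 of 11 fell and 4 rose. The 8 lower in ES2 include EGR1 and AREG, which passed the filter on low values through their siC level alone. EGR1 averaged 0.962 FPKM in siC and 0.259 FPKM in siI1 there. The direction of such genes is set by the filter, so these calls are no evidence of a fall. Some of these counts rest on single libraries. In A549 the 4 higher became 2 without any one library other than siC replicate 3, and the 1 lower became 0 without siC replicate 1, 2 or 3 or siI1 replicate 2. In PANC1 the 3 lower became 1 without siC replicate 1 or siI1 replicate 3, in ES2 the 8 lower became 5 without siI1 replicate 2, and in MV3 the 2 higher became 1 without any one library other than siC replicate 3. The median log2 fold changes of the list were -0.41, -0.36, 0.26 and -0.15 in the same order. The ES2 median counts EGR1, AREG and also FOS, which was not called there. FOS averaged 0.703 FPKM in siC and 0.332 FPKM in siI1 and passed the filter in the same way. That median is therefore set in part by the filter. Counts of calls in the lists below come from the same limma fits, and the share of all genes called is that given above. Apart from EGR1 and FOS, the genes of these lists with values here passed in at least 2 lines or had the largest change of their list in a line.

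The list holds 3 growth factors that activate the EGF receptor. AREG averaged 2.26 FPKM in siC and 0.350 FPKM in siI1 in ES2, where it passed the filter on low values through its siC level alone, 1.15 and 0.5545 FPKM in MV3, and 21.7 and 36.7 FPKM in A549. It fell by 1.75 in ES2 and by 0.66 in MV3 on the log2 scale and rose by 0.75 in A549 (limma, adjusted p = 0.00581, 0.0454 and 0.00382). EREG fell by 0.77 in ES2 and by 0.45 in MV3 and rose by 0.99 in A549 (limma, adjusted p = 0.00339, 0.000511 and 0.000860). HBEGF fell by 1.44 in ES2 and by 0.59 in MV3 (limma, adjusted p = 0.000311 and 0.00169), and its A549 value of 0.22 did not pass. In PANC1 EREG was at -0.63 and HBEGF at 0.16, neither of which passed (limma, adjusted p = 0.0554 and 0.678), and AREG was not tested. EREG and HBEGF therefore had the signs of DUSP6 in ES2 and MV3, and EREG had the sign of DUSP6 in A549 too. AREG had the sign of DUSP6 in MV3 and A549, while the direction of AREG in ES2 was set by the filter.

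FOSL1, an AP-1 subunit, fell in ES2, MV3 and PANC1 by 0.51, 0.73 and 0.47 (log2; limma, adjusted p = 0.00354, 0.000486 and 0.00254). The receptor gene EPHA2 fell in the same 3 lines by 0.25, 0.20 and 0.27, and LIF, a cytokine, by 0.66, 0.25 and 0.34. In PANC1 the largest change of this list was that of TRIB1, a pseudokinase gene, at 1.43 (limma, adjusted p = 0.000857), and it rose in MV3 by 0.14. CCND1, which encodes cyclin D1, fell in A549 and MV3, at -0.32 and -0.31, and rose in PANC1 by 0.35. UPP1, a uridine phosphorylase gene, fell in ES2 and MV3, at -0.26 and -0.41, and rose in PANC1 by 0.44.

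Of 13 family relatives, 9 were tested in each line. In ES2 4 fell and 0 rose, in MV3 5 fell and 1 rose, in A549 2 fell and 0 rose, and in PANC1 0 fell and 1 rose, with medians of -0.37, -0.16, 0.11 and 0.01. Each of these 0 counts (limma) was also 0 at an unadjusted p under 0.05 and 0 with voom. The 5 lower in MV3 became 3 without siC replicate 1 or 3 or siI1 replicate 3, the 2 lower in A549 became 1 without siC replicate 1 or 3, and the 1 higher in PANC1 became 2 without siC replicate 2. DUSP1, a phosphatase of p38 and JNK, fell in ES2 and MV3 by 0.59 and 0.56 and rose in PANC1 by 0.47 (limma, adjusted p = 0.00260, 0.00108 and 0.00291), as DUSP5 did. DUSP7, the relative closest to DUSP6 in substrate, fell by 0.43 in ES2 and by 0.29 in MV3. DUSP16, a phosphatase of JNK, fell in A549, ES2 and MV3 by 0.56, 0.83 and 0.66. PHLDA2 fell by 0.73 in ES2 and by 0.26 in MV3, while PHLDA3, a p53 target, rose by 0.61 in MV3 and fell by 0.39 in A549.

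**Figure D3:**
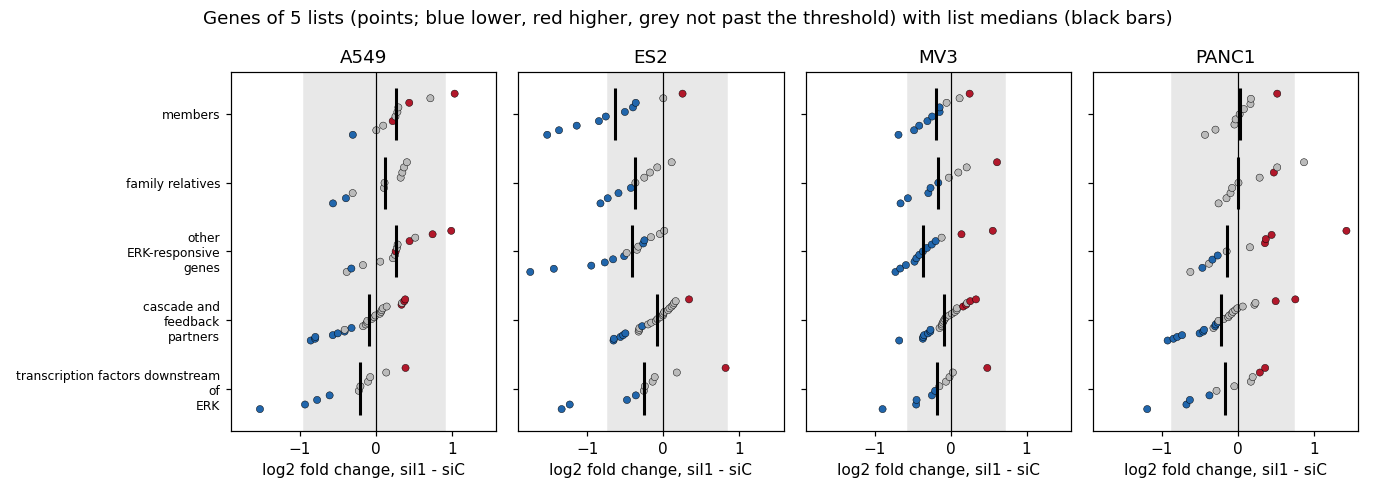
Log2 fold change, siI1 minus siC, of every tested gene of 5 lists (rows) in each line (panels), blue where lower, red where higher and grey where not past the threshold, with a black bar at each list's median and a grey band from the 5th to the 95th percentile of all tested genes. The medians of the members and of the other ERK-responsive genes are at -0.63 and -0.41 in ES2 and at 0.27 and 0.26 in A549, and those of the cascade genes lie between -0.22 and -0.08 in the 4 lines. The ES2 median of the other ERK-responsive genes counts EGR1, AREG and FOS, which passed the filter on low values through siC alone.

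The cascade itself was read from 24 genes from receptor adaptors to ERK and its substrates, all of them tested in every line. There 7 fell and 3 rose in A549, 6 fell and 1 rose in ES2, 7 fell and 4 rose in MV3, and 10 fell and 2 rose in PANC1. The 10 lower in PANC1 became 6 without siC replicate 1 or 3 or siI1 replicate 1 or 2, and the 2 higher became 1 without siC replicate 3. In A549 the 3 higher became 0 without siC replicate 1 or 3 and 1 without siI1 replicate 2, and the 7 lower became 4 without siI1 replicate 2. In MV3 the 4 higher became 2 without siC replicate 2 or siI1 replicate 2 and 1 without siI1 replicate 3. The medians were -0.08, -0.09, -0.08 and -0.22. MAPK3, which encodes ERK1, rose in PANC1 by 0.75 and in MV3 by 0.16 (log2; limma, adjusted p = 0.00166 and 0.0496). MAP2K2, which encodes MEK2, fell by 0.86 in A549, 0.56 in ES2 and 0.68 in MV3, and MAP2K1, which encodes MEK1, fell by 0.50 in ES2 and by 0.27 in MV3 and rose by 0.34 in A549 (limma, adjusted p = 0.00201, 0.0119 and 0.0167). CBL, a ubiquitin ligase that takes receptors out of signalling, fell in all 4 lines, with log2 fold changes of -0.80, -0.66, -0.36 and -0.80. RPS6KA3, a kinase below ERK, fell by 0.57 in A549, 0.27 in MV3 and 0.93 in PANC1. BRAF fell by 0.50 in A549 and 0.46 in PANC1, NRAS by 0.30 in MV3 and 0.85 in PANC1, and NF1, the partner of SPRED1, rose by 0.34 in ES2 and 0.33 in MV3. With the same-sum scaling 21 of 24 fell in PANC1, as did 4 family relatives and 6 of the other ERK-responsive genes, with the shift of the median given above.

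Among 10 transcription factors downstream of ERK, 4 fell and 1 rose in A549, 4 and 1 in ES2, 5 and 1 in MV3, and 4 and 2 in PANC1. The 1 higher in A549, ELK3, was lost without siC replicate 1 or 3 or siI1 replicate 2 or 3. The 2 higher in PANC1 became 0 without siI1 replicate 1 or 2 and 1 without any one of the other libraries. SRF, the factor of the CArG box, fell in all 4 lines by 1.53 in A549 and 1.23 in ES2 and less in MV3 and PANC1, by 0.90 and 0.68 (log2; limma, adjusted p = 0.00101, 0.000603, 0.000190 and 0.00528). ELK4, an ETS partner of SRF, fell by 1.20 in PANC1, 0.77 in A549 and 0.45 in MV3. ETS2 fell by 0.93 in A549, 1.34 in ES2 and 0.20 in MV3, and ETS1 by 0.25 in MV3 and 0.38 in PANC1. ATXN1L, a partner of the repressor CIC, fell in all 4 lines by 0.61, 0.36, 0.45 and 0.63, while its relative ATXN1 rose by 0.82 in ES2 and 0.48 in MV3. CIC passed in no line. ELK3 rose in A549 and PANC1, by 0.39 and 0.36. CBL, SRF and ATXN1L thus fell also in A549 and PANC1, where DUSP5, DUSP6, SPRY2 and SPRY4 were not called lower.

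How the members varied together was described over the 24 libraries after the mean of each line was taken off, which keeps the knockdown effect and the scatter between libraries. Over 45 pairs Pearson's r ran from -0.71 for DUSP4 and SPRED1 to 0.88 for ETV5 and PHLDA1, with a median of 0.55. DUSP5 and SPRY2 had r = 0.84, and DUSP6 had r = 0.81 with both SPRY4 and ETV5. The value was above 0.5 in 26 pairs and below 0 in 9. SPRED1 was in 6 of these 9 pairs and SPRED2 in the other 3. For DUSP4 the PANC1 libraries, with at most 1 read each, hold almost no variation, so its r rests on the other lines. The libraries share a line, an arm and their scaling, so these are descriptions of 24 libraries.

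**Figure D4:**
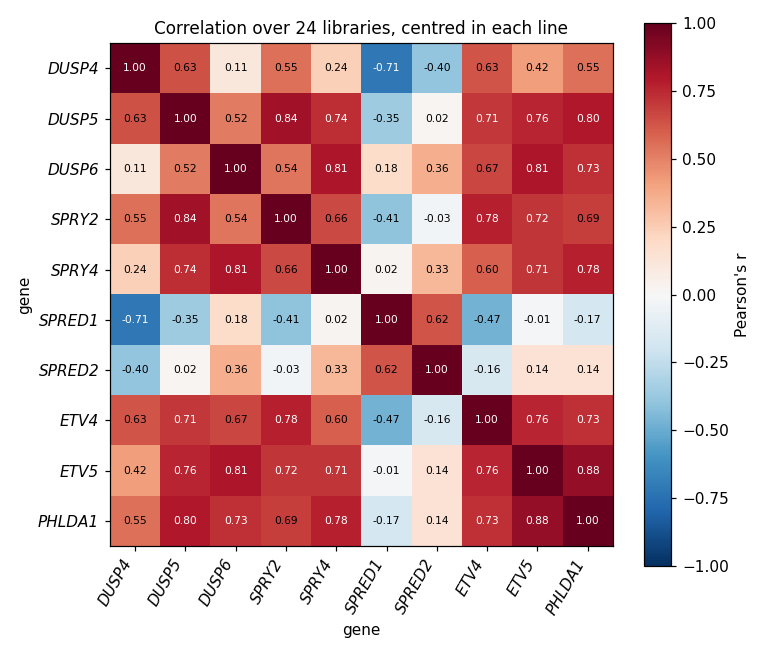
Pearson's r (colour and number) between each pair of the 10 genes over 24 libraries, as log2(FPKM + 0.5) less the mean of each line. DUSP5, DUSP6, SPRY2, SPRY4, ETV4, ETV5 and PHLDA1 form a block of r from 0.52 to 0.88, and SPRED1 is at -0.71 with DUSP4 and at 0.62 with SPRED2.

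Measured in the same way over 8894 protein-coding genes outside the members, the 5 with the pattern most like that of DUSP6 were AOX1 (r = 0.90), ARHGEF2 (r = 0.87), NAMPT (r = 0.87), SFRP1 (r = 0.86) and ZNF503 (r = 0.86). They were picked on the same libraries with the knockdown effect kept in, so likeness to DUSP6 in direction follows from the choice. Their log2 fold changes in A549 ran from 0.38 in ARHGEF2, which did not pass (limma, adjusted p = 0.0591), to 1.04 in AOX1. In ES2 they ran from -0.63 in ARHGEF2 to -0.47 in AOX1. In PANC1 only NAMPT passed, at -0.42 (limma, adjusted p = 0.00950). In MV3 AOX1 and SFRP1 were at 0.19 and 0.26, above 0 where DUSP6 was at -0.15, and NAMPT and ARHGEF2 at -0.33 and -0.24.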

How the data were processed

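The authors, according to the labels and the study's methods, trimmed reads with Cutadapt 1.14, aligned them to hg38 with HISAT2 2.1.0, counted reads per gene with featureCounts 1.5.3 and an Ensembl annotation, and normalised each line on its own with TMM in edgeR 3.30.3. The authors deposited 1 table per line with FPKM values per library. The unit is not named in the tables and was read from the values: value times length was a whole multiple of 1 step per library for 100% of values (tolerance 0.01 reads), so that reads could be recovered. Gene length in bases is a further deposited column. The deposited log2 fold change, p-value and FDR of the authors' comparisons were not used.

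FPKM values were set to log2(FPKM + 0.5), which understates changes of low genes. Genes that averaged 0.5 FPKM or more in a line were tested with limma 3.58.1 (R 4.3.3, eBayes with trend, two-sided, 3 against 3 libraries, no covariate), adjusted over all genes at 0.05. The difference between lines was a moderated F test over 12816 genes. Fits were tested on simulated data with 100 genes changed by each size and the same spread set for all genes and lines. In the real data far more genes were called, which loosens the adjusted threshold, and the spread was unequal. The shares below therefore describe the simulated setting and are not the power of the tests reported. Simulated log2 changes of 1 were recovered at 97% (MV3), 93% (ES2), 88% (PANC1) and 77% (A549). For changes of 0.5 the shares were 47% (MV3), 33% (PANC1), 22% (ES2) and 12% (A549). The test of differences between lines recovered 89% at 1 and 32% at 0.5. A gene that did not pass can still have changed, and reads were fewest in A549. Counts of calls can depend on unequal recovery between the lines, which was not measured in the real data. Replicates of a group differed beyond sampling noise (chi-square per gene 1.54 to 15.1 over 24 pairs) and were counted separately. Same replicate numbers did not deviate together (r from -0.0562 to 0.0711), so no pairing was used. The scaling factor behind each library was 0.905 to 1.10. Alternatives were pseudocounts, filters, scaling, voom, a replicate block, a fold minimum and leaving out libraries. Median-ratio scaling and the differences between pairs of lines were chosen after seeing the data. The members and lists were chosen with earlier results of these data known. Genes named from lists passed in at least 2 lines or had the largest change of their list in a line. To these come the targeted gene and the 5 genes outside the members with the highest correlation with DUSP6. Not every gene meeting this rule is reported here. CIC, EGR1 and FOS were named after their values were seen. Promoters were taken from RefSeq (GRCh38.p14) and 3'UTRs from GENCODE 44. Figures used Python 3.11.15 and matplotlib 3.10.9.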

Additional observations from a re-analysis of the deposited data

Results flagged for a closer look

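Of the members, 7 of the 9 genes tested in all 4 lines had a knockdown effect that differed between the lines by a test of the difference itself (limma F test, adjusted over 12816 genes, 45.0% of which passed). The adjusted p was 2.80e-08 for DUSP5, which fell in ES2 and MV3 and rose in PANC1. It was 5.89e-07 for DUSP6, which rose in A549 and fell in ES2 and MV3. SPRY2, at 6.82e-07, fell in ES2 alone, and that difference was not seen without ES2. SPRY4, at 3.94e-05, ETV4, at 0.00130, and ETV5, at 4.78e-06, fell in ES2 and MV3. PHLDA1, at 1.13e-05, rose in A549 and fell in ES2 and MV3. These p-values belong to the F test over the 4 lines and not to the change in any 1 line. Of the 6 fits without 1 library, the A549 rise passed in 3 for DUSP6 and in 0 for PHLDA1. The MV3 fall passed in 3 for DUSP6 and in 4 for ETV4. No group had the 4 libraries needed to test for a library far from the others.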

How the results depend on the processing

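The 8 lower members of ES2 numbered 6 to 8 and the 7 of MV3 numbered 5 to 7 under every setting but the minimum of 0.5 on the log2 fold change, which left 1 in MV3. That minimum also left 0 lower and 1 higher in A549, 0 higher in ES2 and 0 higher in MV3, since most changes were small. Same-sum scaling gave 1 higher member in A549, and 7 lower and 0 higher in PANC1, where it took the log2 fold changes to -0.22 for DUSP5, -0.68 for SPRY2, -0.62 for SPRY4, -0.55 for SPRED1 and -0.56 for SPRED2, and that of SPRY2 in A549 to -0.0272. Voom on recovered reads gave 5 higher in A549. With the replicate block, which takes up 2 degrees of freedom, the counts were 0 lower and 1 higher in A549, 0 higher in ES2, 7 lower in ES2 and 5 lower in MV3, and the difference between lines passed for 7 of 9 members; the numbers did not pair the libraries. Leaving out 1 library gave 0 to 3 higher members in A549 and 0 to 1 in ES2, with fewer samples in each fit. Values near 0 changed sign in such fits: SPRY2 was between -0.12 and 0.15 in A549, between -0.096 and 0.0104 in MV3 and between -0.0402 and 0.0917 in PANC1, ETV4 in A549 between -0.0314 and 0.19 and SPRED2 in ES2 between -0.0441 and 0.0595. Same-sum scaling brought the members that differed between lines to 9 of 9. Of the counts in the other lists, 45 moved by over 1.5 times with 1 library left out and 147 did not, and 52 moved under other settings and 236 did not. The edgeR test on recovered reads was not run, because the values are FPKM. Depth limits DUSP4 in PANC1, at 0 to 1 reads, and DUSP6 and SPRY4 in A549, at 30 to 105 reads per library.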
